A study of Homo sapiens with 6 samples.

Results

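The RNA interference machinery was examined as 10 genes: the Argonautes AGO1, AGO2, AGO3 and AGO4, the scaffold proteins TNRC6A, TNRC6B and TNRC6C, the processing enzymes DROSHA and DICER1, and the export receptor XPO5. They were found by gene symbol in the deposited table of normalized counts, where each symbol stood in a single row, and they are 10 of its 61859 genes. All 10 were among the 18460 genes tested. The cells were OSC19SSZR, a human oral squamous carcinoma line selected for resistance to sulfasalazine, a blocker of the cystine transporter xCT. They received siRNA against FOXA1 (FOXA1 siRNA, n = 3) or a control siRNA (n = 3) with the same lipid transfection reagent, and RNA was taken 48 h afterwards. Both groups therefore carried a small interfering RNA, and cells without siRNA were not analysed here. Whether replicates came from separate cultures is not stated, and each p-value below therefore rests on library-to-library spread alone, which may be technical.

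MicroRNAs are cut from long transcripts in the nucleus by DROSHA, carried to the cytoplasm by XPO5 (exportin 5) and trimmed by DICER1 to short duplexes. A strand of the duplex is loaded into an Argonaute protein, which pairs it with target mRNAs, and TNRC6 proteins bound to the Argonaute recruit deadenylases and decapping factors that silence and degrade the target. Transfected siRNAs enter at the Argonaute step, and AGO2 is the human Argonaute best known for cutting a fully paired target such as the mRNA of the gene that an siRNA is made against.

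The promoter windows of the 4 members with the largest changes are shown first, since the study lowered a transcription factor that binds DNA through a forkhead motif. They come from RefSeq (GRCh38.p14) and run 5′ to 3′ on the strand of the gene, from 250 bases before to 50 bases after the annotated start. Capitals mark the forkhead core TGTTTA and the CCAAT box, each on either strand. TNRC6B lies at chr22:40044584-40044883 (plus strand), XPO5 at chr6:43575989-43576288 (minus strand), AGO3 at chr1:35930855-35931154 (plus strand) and TNRC6A at chr16:24729401-24729700 (plus strand). The gene positions given further below come from another annotation, GENCODE, which places some starts elsewhere. The TNRC6A and AGO3 windows begin after the GENCODE starts of these genes (24610209 and 35930718) and lie inside them.
TNRC6B: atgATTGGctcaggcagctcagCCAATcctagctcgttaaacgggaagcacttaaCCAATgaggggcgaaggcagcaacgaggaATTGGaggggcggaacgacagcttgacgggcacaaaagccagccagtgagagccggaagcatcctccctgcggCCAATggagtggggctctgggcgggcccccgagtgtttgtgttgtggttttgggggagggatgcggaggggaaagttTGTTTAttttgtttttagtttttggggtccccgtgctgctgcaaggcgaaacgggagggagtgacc
XPO5: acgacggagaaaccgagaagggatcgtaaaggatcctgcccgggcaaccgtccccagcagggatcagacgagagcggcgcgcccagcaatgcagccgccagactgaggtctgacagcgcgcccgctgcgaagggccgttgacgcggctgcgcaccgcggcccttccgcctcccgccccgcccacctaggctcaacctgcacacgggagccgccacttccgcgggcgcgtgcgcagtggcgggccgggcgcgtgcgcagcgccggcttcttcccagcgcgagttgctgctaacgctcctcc
AGO3: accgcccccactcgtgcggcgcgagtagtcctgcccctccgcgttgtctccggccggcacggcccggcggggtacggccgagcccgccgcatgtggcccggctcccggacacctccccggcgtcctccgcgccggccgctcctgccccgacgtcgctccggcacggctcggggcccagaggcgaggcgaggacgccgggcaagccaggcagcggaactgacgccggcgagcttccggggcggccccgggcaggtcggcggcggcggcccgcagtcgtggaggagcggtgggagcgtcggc
TNRC6A: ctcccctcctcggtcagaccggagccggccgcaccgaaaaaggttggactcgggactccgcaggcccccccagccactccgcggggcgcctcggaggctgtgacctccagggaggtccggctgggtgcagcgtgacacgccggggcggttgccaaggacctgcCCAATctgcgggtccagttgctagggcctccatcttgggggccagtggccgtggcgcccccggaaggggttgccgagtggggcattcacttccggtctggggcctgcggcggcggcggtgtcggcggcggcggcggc

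The TNRC6B window held a single TGTTTA, which began at position -16 from the annotated start, and 5 CCAAT boxes. The TNRC6A window held 1 CCAAT box and no TGTTTA, and those of XPO5 and AGO3 held neither. For TNRC6A and AGO3 the bases around the GENCODE starts were not covered. The same holds for AGO1, whose window (35882959 to 35883258) begins after its GENCODE start (35869808). The AGO4 window (35807766 to 35808065) ends before the GENCODE start of AGO4 (35808172). No TNRC6C window contains the GENCODE start of TNRC6C (77959240). In total 9 of the 10 members had 16 windows in the table, since TNRC6C and DICER1 have several annotated starts, and TNRC6B was the only member of those 9 with a TGTTTA. Of all 35116 windows, 12.3% held TGTTTA and 34.6% held CCAAT. Among the members, CCAAT stood in 7 of the 16 windows, which belong to 6 of the 9 members. The longer form TGTTTAC stood in 3.4% of all windows and in no window of a member. The TNRC6B window was 57.3% G and C, near the median of 58.7% over all windows. The windows of XPO5 (71.7%), TNRC6A (73.7%) and AGO3 (80.0%) were above that median. A match is a description of these letters. Binding of FOXA1 was not measured here.

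The libraries held 16510125 to 25732569 reads assigned to genes, recovered from the normalized counts. FOXA1 itself had 247, 192 and 189 normalized counts in the FOXA1 siRNA libraries, against 1477, 1378 and 1459 in the control siRNA libraries, which left 14.5% of the control level (log2 fold change -2.79 ± 0.09 SE). Epithelial markers, squamous ones among them, were present: the 8 listed summed to 48063 to 49550 normalized counts with FOXA1 siRNA and 47588 to 49717 with control siRNA. Within that sum 3 markers were called higher and 2 lower: SFN (1.14 ± 0.05), DSG3 (0.65 ± 0.07) and EPCAM (0.14 ± 0.05) rose, and TP63 (-0.40 ± 0.05) and KRT5 (-0.18 ± 0.04) fell (log2 fold change ± SE). KRT6A was at 178, 72.1 and 64.0 normalized counts with FOXA1 siRNA and at 50.4, 38.3 and 802 with control siRNA, where replicate 3 stood apart. The part of these markers in the results below was not tested. KRT5 and TP63 were abundant, but KRT14 averaged only 47.6 ± 25.7 with FOXA1 siRNA and 30.04 ± 21.8 with control siRNA (SD, n = 3 each). The 8 markers of leukocytes, fibroblasts and endothelium summed to 187 to 215 with FOXA1 siRNA and 256 to 266 with control siRNA, nearly all of it COL1A1 and CD68. The leukocyte marker PTPRC had 6 reads in all with FOXA1 siRNA and 13 with control siRNA, and the endothelial marker PECAM1 had 0 reads with FOXA1 siRNA and 2 with control siRNA.

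Of the 10 genes, 7 changed with FOXA1 knockdown, 3 higher and 4 lower (limma, Benjamini-Hochberg adjusted p under 0.05 over all genes tested). XPO5, TNRC6A and DROSHA rose, and TNRC6B, AGO3, AGO1 and DICER1 fell. In bulk RNA, a change in the share of cells that express a gene and a change in its RNA per cell cannot be told apart. Much of the transcriptome passed the same threshold: 51.8% of all genes tested, 26.8% higher and 25.0% lower, so 7 of 10 is not far from the background. For 7 of the 10 members every FOXA1 siRNA value lay on the same side of all control values, which was so for 57.6% of all genes tested. The median log2 fold change of the members was -0.09, against 0.0039 over all genes tested, and the median size of the change without its sign was 0.27, against 0.29. The members thus moved by amounts usual in this comparison. The same 7 genes had an adjusted p under 0.05 in the authors' deposited table. Without control siRNA replicate 2, 2 members were called lower instead of 4. With every library scaled to the same total, 2 members were higher and 5 lower, and over all genes 3594 were higher and 5967 lower, against 4954 and 4617 as deposited.

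**Figure D1:**
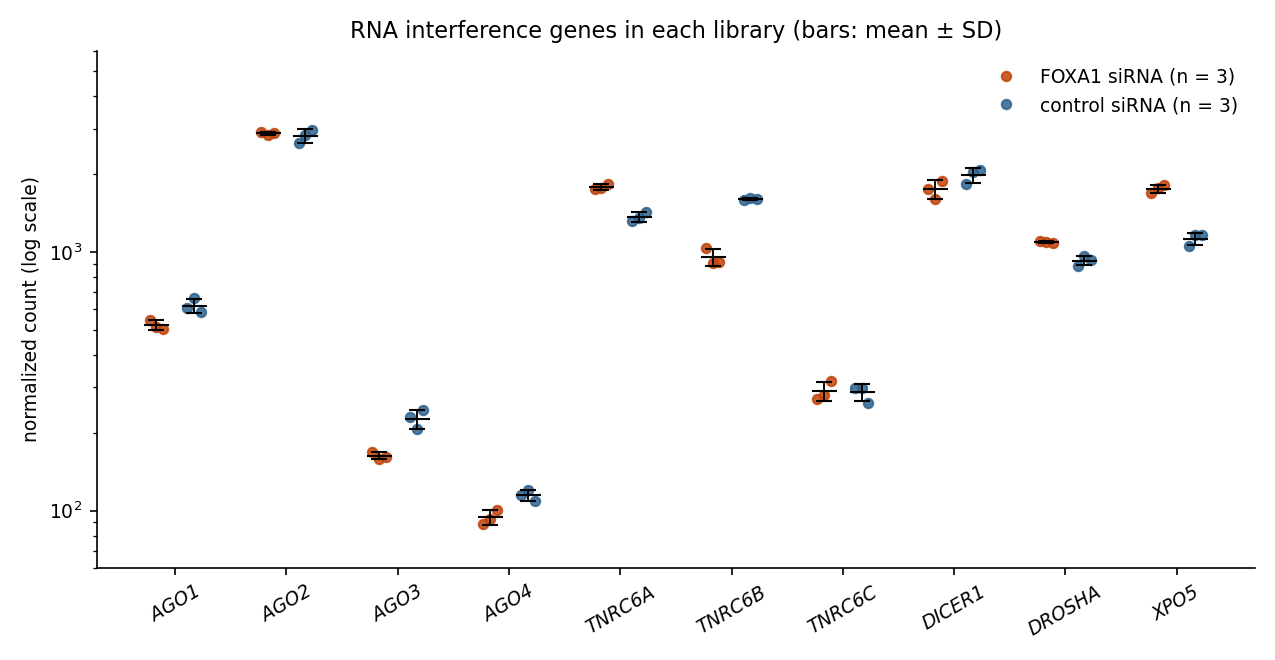
Normalized counts of the 10 RNA interference genes (log axis) in each of 3 FOXA1 siRNA libraries (orange, left of each pair) and 3 control siRNA libraries (blue); black bars are the mean ± SD. The groups are apart for XPO5, TNRC6A, TNRC6B, DROSHA, AGO1, AGO3 and AGO4, and overlap for AGO2, TNRC6C and DICER1.

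The TNRC6 genes, which encode the GW-repeat scaffolds that join Argonautes to the deadenylation machinery, went in different directions. TNRC6B fell to 1035, 908 and 918 normalized counts in the FOXA1 siRNA libraries, against 1589, 1619 and 1606 in the control siRNA libraries. All 3 FOXA1 siRNA values lay far below the lowest control, and the fall to 59.4% of the control mean was the largest change among the 10 genes (log2 fold change -0.75 ± 0.06 SE, limma adjusted p = 4.00e-11). TNRC6A rose to 1746, 1764 and 1831 normalized counts with FOXA1 siRNA, against 1315, 1358 and 1432 with control siRNA. Here each FOXA1 siRNA library was above every control library (0.38 ± 0.06, limma adjusted p = 1.64e-06). TNRC6C, the least abundant of the 3, had 269, 281 and 317 normalized counts with FOXA1 siRNA and 299, 299 and 262 with control siRNA. The groups overlapped, and the log2 difference of 0.01 had a 95% interval from -0.19 to 0.21, with the opposite sign when libraries were scaled to equal totals. TNRC6C shares 1438 bases of exon with TNRC6C-AS1 on the opposite strand. That gene has no row in the deposited table, so its level is not known here. The part of shared reads in the TNRC6C values was not tested.

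TNRC6A and TNRC6B therefore moved apart within a library. The ratio of TNRC6A to TNRC6B normalized counts was 1.69, 1.94 and 1.99 in the FOXA1 siRNA libraries, against 0.828, 0.839 and 0.892 in the control siRNA libraries. This ratio of counts, which is not set per length, does not depend on how a library is scaled. Its log2 value was higher by 1.13 with FOXA1 siRNA, in 3 of 3 libraries, and an exact two-sided permutation test gave p = 0.1, the smallest that 3 against 3 libraries allow. With any single library left out, this difference stayed between 1.09 and 1.21. Counted per kilobase of annotated exon, TNRC6A made up 65.2% ± 1.01 of the summed TNRC6 level with FOXA1 siRNA and 49.96% ± 1.46 with control siRNA (SD, n = 3 each). TNRC6B made up 22.6% ± 1.74 with FOXA1 siRNA and 37.9% ± 0.410 with control siRNA, so that TNRC6A was above TNRC6B in both groups on that scale. Per kilobase of coding sequence TNRC6A was above TNRC6B with FOXA1 siRNA (57.5% and 32.95% of the sum) and below it with control siRNA (40.45% and 50.8%). Per kilobase of exon, the sum of the 3 genes was 211 ± 4.48 with FOXA1 siRNA and 212 ± 3.38 with control siRNA. That difference was smaller than the spread between replicates. Per kilobase of coding sequence the sum was 515 ± 10.7 with FOXA1 siRNA and 562 ± 8.40 with control siRNA, since TNRC6B has the longest exons of the 3, 19.998 kb against 12.924 kb for TNRC6A and 11.111 kb for TNRC6C, with coding lengths of 5.613, 6.013 and 5.841 kb. TNRC6B is on chromosome 22 (40044817 to 40335808, plus strand), TNRC6A on chromosome 16 (24610209 to 24827632, plus strand) and TNRC6C on chromosome 17 (77959240 to 78108835, plus strand), by the GENCODE 29 annotation of GRCh38.

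**Figure D2:**
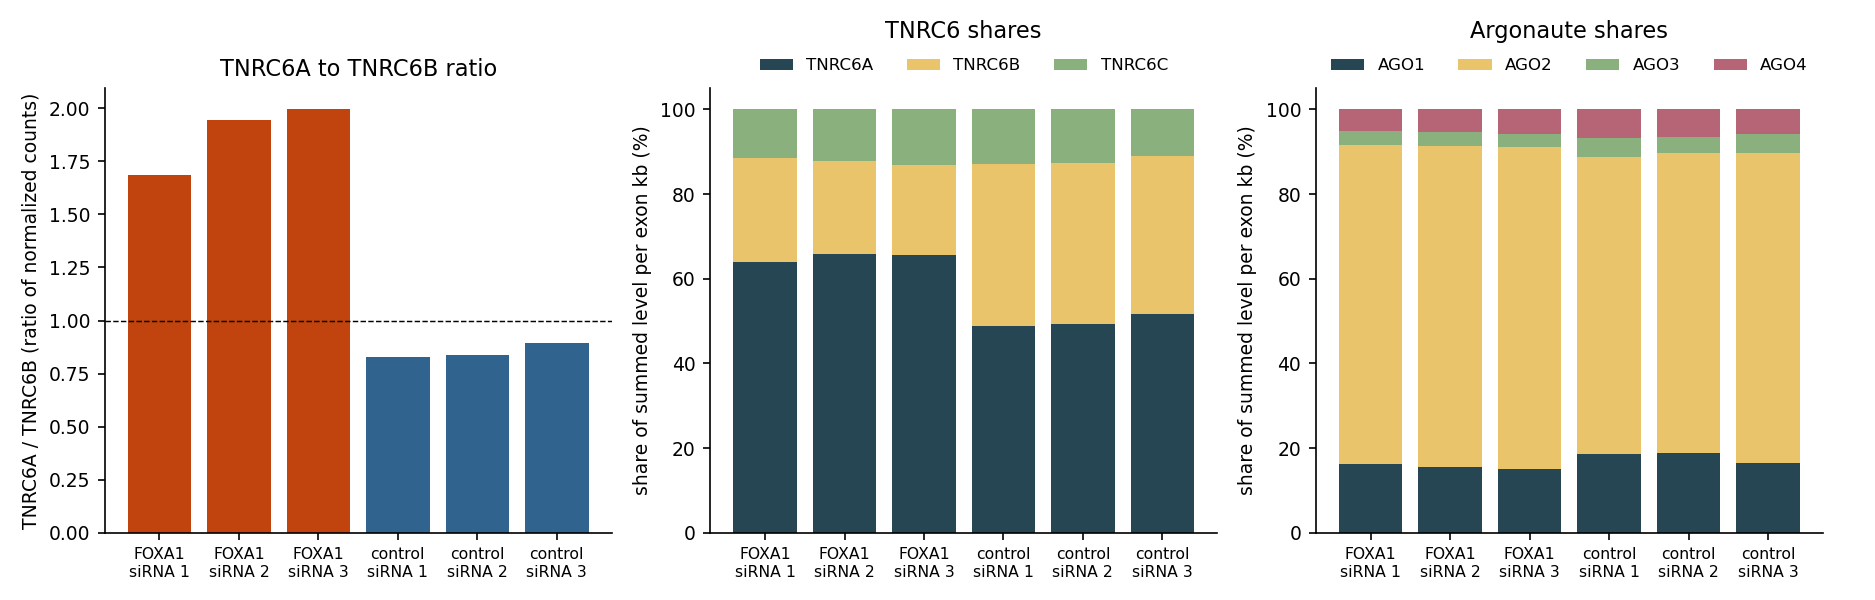
Left, ratio of TNRC6A to TNRC6B normalized counts in each library, with the dashed line at equal counts. Middle and right, share of each gene in the summed TNRC6 and Argonaute levels per kilobase of annotated exon, in percent. The ratio is between 1.69 and 1.99 in the FOXA1 siRNA libraries and between 0.828 and 0.892 in the control siRNA libraries, and AGO2 makes up over 70% of the Argonaute sum in all 6 libraries.

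Among the Argonautes, the predominant gene AGO2 did not pass the test, while AGO1 and AGO3 fell. AGO2 had 2904, 2841 and 2894 normalized counts with FOXA1 siRNA and 2634, 2825 and 2975 with control siRNA. The FOXA1 siRNA values lay within the range of the controls, and the log2 difference of 0.04 had a 95% interval from -0.07 to 0.14 (limma adjusted p = 0.580). Its sign was negative with equal library totals, with quantile normalization and without control siRNA replicate 1. AGO3, an Argonaute that keeps the catalytic residues but cuts few targets, fell to 168, 159 and 161 normalized counts with FOXA1 siRNA, against 229, 206 and 244 with control siRNA. The groups were apart, and AGO3 was left at 71.9% of its control mean (log2 fold change -0.47 ± 0.11 SE, limma adjusted p = 7.48e-04).

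AGO1, which silences without cutting, had 547, 514 and 505 normalized counts with FOXA1 siRNA, against 610, 664 and 588 with control siRNA. It fell by 0.25 on the log2 scale (SE 0.07, limma adjusted p = 0.00636), but did not pass without control siRNA replicate 2 (-0.20, limma adjusted p = 0.0565, in a range of 3.85e-04 to 0.0565 over its alternatives). AGO4, the lowest of the 4 in normalized counts, had 89.0, 92.6 and 100.8 with FOXA1 siRNA and 115, 120 and 109 with control siRNA. The groups were apart, but the log2 difference of -0.28 ± 0.14 SE did not pass (limma adjusted p = 0.1005). With equal library totals it was called lower (limma adjusted p = 0.0279), and also with limma's trend and robust options turned off (adjusted p = 0.0246), in a range of 0.0246 to 0.409 over its alternatives. A range of 83 to 122 reads per library lay behind each AGO4 value, the fewest of any member.

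AGO4, AGO1 and AGO3 lie in this order on the plus strand of chromosome 1, at 35808172 to 35857890, 35869808 to 35930528 and 35930718 to 36072500. Only 189 bases separate the annotated end of AGO1 from the start of AGO3, and 11917 bases separate AGO4 from AGO1. AGO2 is on chromosome 8 (140520156 to 140635619, minus strand). Per kilobase of exon, AGO2 made up 75.8% ± 0.240 of the Argonaute sum with FOXA1 siRNA and 71.4% ± 1.60 with control siRNA. AGO1 made up 15.7% ± 0.542 with FOXA1 siRNA and 18.0% ± 1.31 with control siRNA, AGO4 5.40% ± 0.363 with FOXA1 siRNA and 6.35% ± 0.457 with control siRNA, and AGO3 3.20% ± 0.0613 with FOXA1 siRNA and 4.30% ± 0.393 with control siRNA (SD, n = 3 each). The shares of AGO2 were higher in each FOXA1 siRNA library than in any control library. The Argonaute sum itself was 240.1 ± 3.18 with FOXA1 siRNA and 249 ± 10.4 with control siRNA, and its values overlapped between the groups. Per kilobase of coding sequence, AGO2 made up 79.1% ± 0.358 with FOXA1 siRNA and 74.9% ± 1.32 with control siRNA. The order of AGO3 and AGO4 was reversed on the coding scale. There AGO3 made up 4.41% and AGO4 2.58% with FOXA1 siRNA, and 5.96% and 3.05% with control siRNA.

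The nuclear enzyme and the export receptor rose, and the cytoplasmic enzyme fell slightly. XPO5, the RAN-dependent carrier of microRNA precursors, rose to 1695, 1764 and 1815 normalized counts with FOXA1 siRNA, against 1055, 1162 and 1159 with control siRNA. The groups were wide apart, and XPO5 reached 156% of the control mean (log2 fold change 0.64 ± 0.06 SE, limma adjusted p = 3.68e-10). XPO5 lies on chromosome 6 (43522330 to 43576075, minus strand) and shares 348 bases of exon with POLR1C on the opposite strand. POLR1C, a subunit of RNA polymerases I and III, also rose (0.40 ± 0.06). Whether the library kept strand is not given in the sources used here, so the part of shared reads was not tested.

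DROSHA, the RNase III enzyme of the nuclear Microprocessor, had 1104, 1093 and 1085 normalized counts with FOXA1 siRNA, against 885, 962 and 930 with control siRNA. Each FOXA1 siRNA library was above every control library (log2 fold change 0.24 ± 0.06 SE, limma adjusted p = 0.00155). With equal library totals the rise was 0.14 and did not pass (limma adjusted p = 0.0527, in a range of 0.00135 to 0.0527 over its alternatives). DICER1, the RNase III enzyme that makes the mature duplex, had 1745, 1600 and 1889 normalized counts with FOXA1 siRNA, against 1831, 2047 and 2071 with control siRNA. The highest FOXA1 siRNA value lay above the lowest control value, and DICER1 fell by 0.19 on the log2 scale (SE 0.06, limma adjusted p = 0.0149). This call was lost without FOXA1 siRNA replicate 2 (-0.12, limma adjusted p = 0.111), without control siRNA replicate 2 (0.0717), without control siRNA replicate 3 (0.0851) and with limma's trend and robust options turned off (0.138), in a range of 7.12e-04 to 0.138 over its alternatives. DROSHA is on chromosome 5 (31400497 to 31532196, minus strand) and DICER1 on chromosome 14 (95086228 to 95158010, minus strand), where 80 exon bases are shared with the low antisense gene DICER1-AS1.

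The ratio of XPO5 to DICER1 normalized counts was 0.971, 1.10 and 0.960 in the FOXA1 siRNA libraries, against 0.576, 0.568 and 0.560 in the control siRNA libraries. That of DROSHA to DICER1 was 0.633, 0.683 and 0.574 with FOXA1 siRNA, against 0.484, 0.470 and 0.449 with control siRNA. Both ratios were higher in each FOXA1 siRNA library than in any control library, by 0.83 and 0.43 on the log2 scale. The exact two-sided permutation test gave p = 0.1 for each, the smallest value possible. The 3 ratios described here were the only ones computed.

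**Figure D3:**
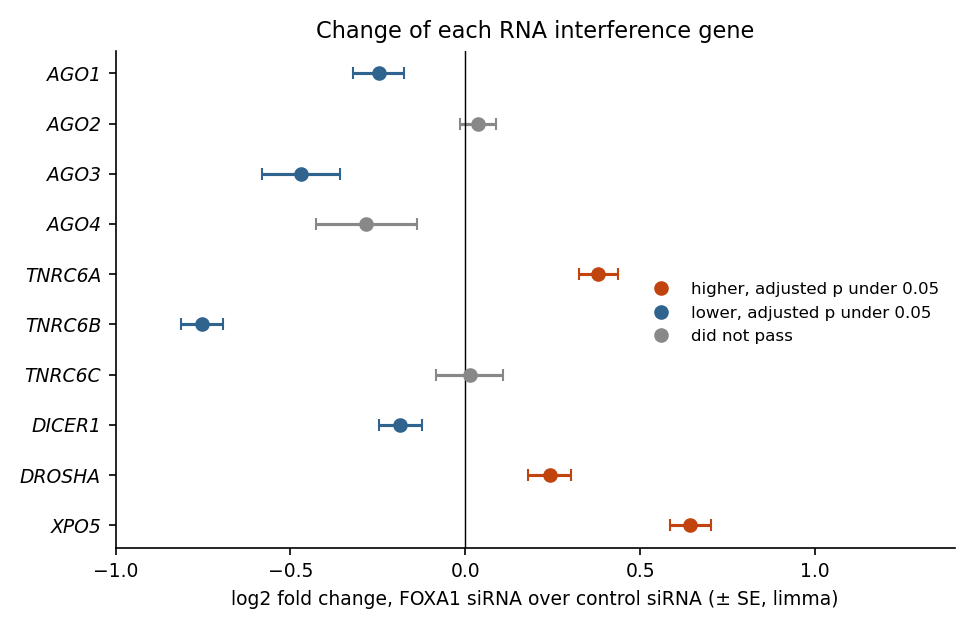
Log2 fold change of each member, FOXA1 siRNA over control siRNA, with its standard error from limma (n = 3 libraries each); orange marks genes that rose, blue genes that fell and grey genes that did not pass. The changes run from -0.75 for TNRC6B to 0.64 for XPO5.

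Levels can be compared between genes only per length. Per kilobase of exon, XPO5 was highest with FOXA1 siRNA (206 ± 7.07), followed by AGO2 (182 ± 2.13), DICER1 (142 ± 11.8), DROSHA (141 ± 1.22) and TNRC6A (138 ± 3.47), with overlap between neighbours among the last 3. TNRC6B (47.7 ± 3.55), AGO1 (37.6 ± 1.58), TNRC6C (26.0 ± 2.23), AGO4 (13.0 ± 0.836) and AGO3 (7.69 ± 0.236) followed, with no overlap between neighbours. With control siRNA, AGO2 (178 ± 10.8) and DICER1 (161 ± 10.8) overlapped at the top. They stood above XPO5 (132 ± 7.18), DROSHA (119 ± 4.97), TNRC6A (106 ± 4.57) and TNRC6B (80.2 ± 0.750), and the other 4 kept the order they had with FOXA1 siRNA. Exon length includes long untranslated ends that a cell may not use, and this changes the order. Per kilobase of coding sequence AGO2 led in both groups, with 1117 ± 13.1 for FOXA1 siRNA and 1091 ± 66.2 for control siRNA. XPO5 was second there with FOXA1 siRNA (482 ± 16.5) and overlapped DICER1 with control siRNA (308 ± 16.8 for XPO5 and 341 ± 22.8 for DICER1). These values are normalized counts per kilobase (SD, n = 3).

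Genes that work with the 10 members were read from 9 lists, by counts and medians, beside the 26.8% higher, the 25.0% lower and the median of 0.0039 over all genes tested. These shares include low genes. With the test limited to the 14513 genes whose mean reached 50, 4736 were called higher and 3893 lower, which are larger shares. The nuclear list, cofactors of DROSHA and related processing factors, had 7 of 11 genes higher and 2 lower (median log2 fold change 0.30). KHSRP, an RNA-binding protein that promotes processing of some precursors, rose (0.42 ± 0.05), as did the splicing factor SRSF3 (0.38 ± 0.06). ERH, a small partner of DGCR8, fell (-0.26 ± 0.06), and so did the helicase DDX17 (-0.12 ± 0.05). The call of ERH was lost in 1 of 18 alternatives, with limma's trend and robust options turned off (limma adjusted p = 0.0631). In that setting 0 genes of this list were called lower. The call of DDX17 was lost in 5 of 18 alternatives, among them those without control siRNA replicate 2 (-0.10) and without FOXA1 siRNA replicate 2 (-0.09). DGCR8, the obligate partner of DROSHA, was at 825 ± 71.4 normalized counts with FOXA1 siRNA and 730 ± 78.5 with control siRNA (SD, n = 3 each), a log2 difference of 0.18 ± 0.08 SE that did not pass. It was called higher with the replicate number as a block (limma adjusted p = 0.0351), and when control siRNA replicate 2 (0.26, 0.0107) or FOXA1 siRNA replicate 3 (0.24, 0.0144) was left out, in a range of adjusted p from 0.0107 to 0.417 over its alternatives. DGCR8 is not among the genes picked by size and was named for its role after its value was seen.

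All 8 genes of the RAN cycle and of related exporters rose (median 0.43). With equal library totals 7 of the 8 rose. Over all genes tested 26.8% were called higher. RANGAP1, which stimulates GTP hydrolysis by RAN, had 4622 ± 195 normalized counts with FOXA1 siRNA and 2796 ± 103 with control siRNA (SD, n = 3 each, log2 fold change 0.72 ± 0.05). The nuclear pore gene NUP153 rose as well (0.59 ± 0.05).

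Of 13 partners of Dicer and chaperones that load Argonautes, 8 rose and 2 fell (median 0.38). HSPA8, the constitutive HSP70, had 36966 ± 1795 normalized counts with FOXA1 siRNA and 18908 ± 495 with control siRNA (0.97 ± 0.04), and FKBP4, an HSP90 cochaperone, had 5160 ± 72.7 with FOXA1 siRNA and 2879 ± 23.7 with control siRNA (0.84 ± 0.05; SD, n = 3 each). The HSP40 gene DNAJA2 fell (-0.29 ± 0.05), as did TSNAX (-0.24 ± 0.07), a subunit of the nuclease C3PO. The double-stranded RNA binding partners of DICER1 did not pass: TARBP2 was at 457 ± 32.7 normalized counts with FOXA1 siRNA and 454 ± 10.5 with control siRNA, and PRKRA at 411 ± 28.5 with FOXA1 siRNA and 388 ± 10.9 with control siRNA (SD, n = 3 each). Both were named for their role after their values were seen.

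The effectors that TNRC6 proteins recruit were mixed. Among 15 deadenylation genes, 7 rose and 2 fell (median 0.05), and 5 and 3 with equal library totals. The cytoplasmic poly(A)-binding protein gene PABPC4 (0.55 ± 0.04) and the deadenylase gene CNOT6 (0.38 ± 0.05) rose, and the deadenylase genes CNOT8 (-0.52 ± 0.06) and CNOT6L (-0.21 ± 0.07) fell, the last with its call lost in 4 of 18 alternatives, among them those without control siRNA replicate 2 (-0.20) and without FOXA1 siRNA replicate 2 (-0.15). Of 19 tested genes for decapping and translational silencing, 9 rose and 3 fell (median 0.16), and 6 and 5 with equal library totals. LSM4 (0.50 ± 0.05) and LSM6 (0.45 ± 0.10), subunits of the ring that promotes decapping, rose. The decapping enzyme gene DCP2 fell to 352 ± 37.0 normalized counts with FOXA1 siRNA, against 528 ± 3.29 with control siRNA (-0.59 ± 0.08; SD, n = 3 each), and the helicase gene DDX6, which links TNRC6-bound deadenylases to decapping, fell to 2230 ± 81.8 with FOXA1 siRNA, against 3187 ± 25.4 with control siRNA (-0.52 ± 0.05; SD, n = 3 each).

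Genes of microRNA tailing and turnover went both ways, with 4 of 8 tested higher and 3 lower (median 0.04), and with 1 higher and 3 lower when totals were made equal. The nuclease gene SND1 (0.26 ± 0.05) and the deadenylase gene PARN (0.25 ± 0.07) rose. The poly(A) polymerase gene TENT2 (-0.36 ± 0.09) and ZSWIM8 (-0.22 ± 0.08), a ubiquitin ligase receptor that removes Argonautes engaged by certain targets, fell. PARN lost its call in 3 of 18 alternatives, including that without control siRNA replicate 3 (0.19). ZSWIM8 lost it in 6 of 18, including those without control siRNA replicate 2 (-0.18), control siRNA replicate 3 (-0.18) or FOXA1 siRNA replicate 3 (-0.11). Without control siRNA replicate 1 or 2, 2 turnover genes were higher instead of 4, and without control siRNA replicate 3, 1 was lower instead of 3. LIN28B had 0 reads in all 6 libraries and LIN28A had 1.

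Regulators of Argonautes held the largest single change of these lists. Of 12 tested, 3 rose and 3 fell (median -0.07), near the shares over all genes, and 3 rose and 5 fell with equal library totals. ANKRD52, the regulatory subunit through which protein phosphatase PP6 acts on AGO2, had 1560 ± 91.4 normalized counts with FOXA1 siRNA and 633 ± 74.2 with control siRNA (1.31 ± 0.08; SD, n = 3 each). CSNK1A1, the casein kinase that phosphorylates the same region of AGO2, fell to 6079 ± 158 with FOXA1 siRNA, against 8015 ± 223 with control siRNA (-0.40 ± 0.05; SD, n = 3 each). The helicase gene MOV10 rose (0.83 ± 0.08) and FXR1, an RNA-binding relative of FMR1, fell (-0.22 ± 0.05). The phosphatase subunit PPP6C that pairs with ANKRD52 was at 902 ± 49.4 with FOXA1 siRNA and 959 ± 50.7 with control siRNA, which did not pass (limma adjusted p = 0.271) but was called lower with equal library totals (-0.19, limma adjusted p = 0.0168). It was named for its role after its value was seen.

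**Figure D4:**
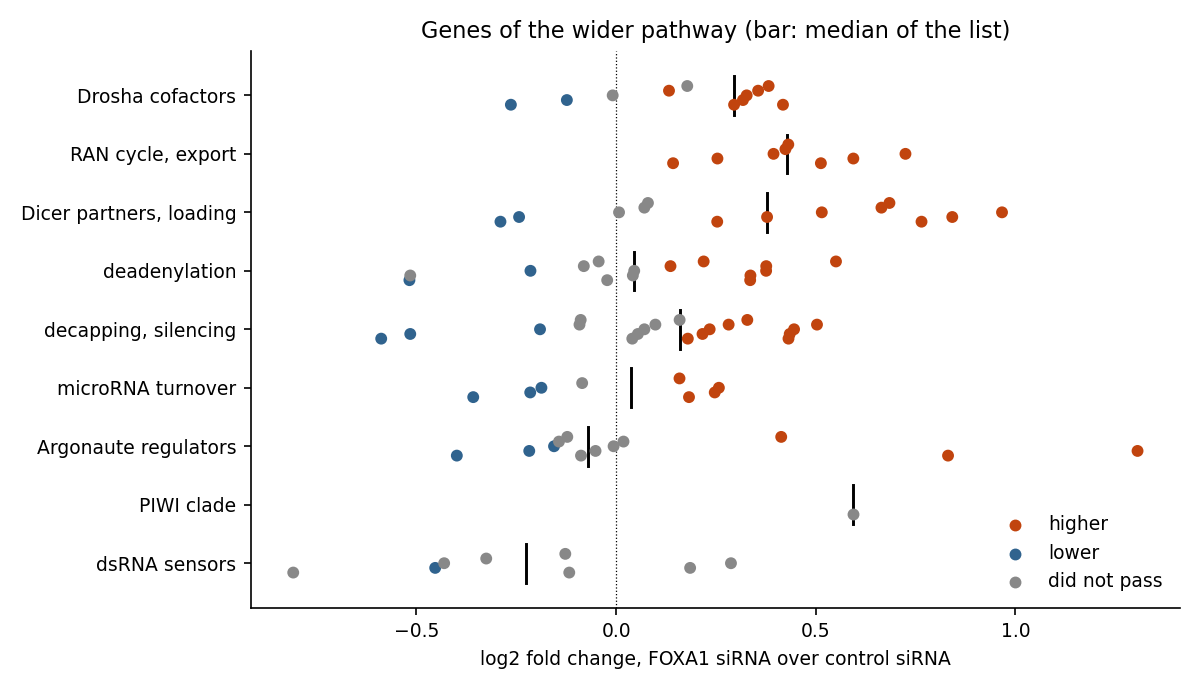
Log2 fold change (FOXA1 siRNA over control siRNA) of every tested gene in the 9 lists; orange rose, blue fell, grey did not pass, and the black bar is the median of the list. All 8 RAN cycle and export genes are to the right of 0, while the other lists with calls in both directions spread to both sides.

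The PIWI clade, the germline branch of the Argonaute family, was near the floor: 3 of its 4 genes fell under the filter on low values, and PIWIL4 was at 40.7 ± 11.4 normalized counts with FOXA1 siRNA and 26.7 ± 8.31 with control siRNA, which did not pass (limma adjusted p = 0.0678). It passed as higher with quantile normalization and without control siRNA replicate 2 or FOXA1 siRNA replicate 3. Sensors of double-stranded RNA, which can meet a transfected siRNA, were measured in both groups and 8 of 10 were tested. RIGI fell (-0.45 ± 0.14, limma adjusted p = 0.0119) and no other tested sensor was called (median -0.23). The call of RIGI was lost in 4 of 18 alternatives, among them those without FOXA1 siRNA replicate 2 (-0.26) and without control siRNA replicate 3 (-0.38), with limma adjusted p-values from 5.69e-04 to 0.0954 over all. The number of sensors called lower was 3 with equal library totals or without FOXA1 siRNA replicate 1, 2 without FOXA1 siRNA replicate 3 or control siRNA replicate 2, and 0 without control siRNA replicate 3. Without FOXA1 siRNA replicate 2, 1 sensor was called higher. Within the FOXA1 siRNA group, replicate 2 had the lowest value for all 8 tested sensors. The summed level of the sensors ranged from 1900 to 2599 with FOXA1 siRNA and from 2574 to 2696 with control siRNA.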

How the data were processed

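Per the labels' protocols, total RNA was made into libraries with the NEBNext Ultra RNA kit. The submitters' processing notes list HISAT2, DESeq2 and 2 builds (GRCh38, GRCm38) with no roles or versions. The read counter is not given in the sources used here. Per the file headers, the deposited table holds normalized counts, a signal value per gene and sample, and from the authors a log2 fold change, its error, a test score and p-values. Of 61862 lines, 3 were malformed and left out. All values (100%) were whole multiples of a step per sample to within 0.01 read, so reads were recovered, with size factors from 0.843 to 1.32. No library was a copy of another: a chi-square of 2.51 to 5.14 per gene separated replicates.

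Groups came from the titles. The main test was limma 3.58.1 (R 4.3.3, trend and robust options) on log2(normalized count + 1) for the 18460 genes with a mean of at least 10, with Benjamini-Hochberg adjustment over all of them. The added 1 shrinks fold changes of low genes. On recovered reads, edgeR 4.0.16 (quasi-likelihood, TMM) called 4738 genes higher and 4800 lower, and DESeq2 1.42.0 called 4343 and 4150. Lengths are the union of exons or coding parts in GENCODE 29 (GRCh38). Members and lists were chosen with earlier results of these data known. From each list, up to 2 genes that rose and 2 that fell were named by size of change, where the mean reached 50. Same-numbered replicates of the groups did not deviate together (correlations -0.0109 to 0.0109). Whether they were prepared together is not stated, and these correlations cannot settle it.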

Additional observations from a re-analysis of the deposited data

How the results depend on the processing

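XPO5, TNRC6A, TNRC6B and AGO3 kept their direction and their call in all 18 alternatives, with log2 fold changes from 0.55 to 0.67, from 0.28 to 0.41, from -0.85 to -0.72 and from -0.57 to -0.38. The number of members called higher was 3, and 2 with equal library totals; the number called lower was 4 and ran from 2 to 5, with 2 to 4 when a single library was left out. AGO1 lost its call without control siRNA replicate 2, and over the left-out libraries its log2 fold change ran from -0.29 to -0.20. That of DICER1 ran from -0.24 to -0.12; its call was also lost at -0.19 in limma without its trend and robust options and at a threshold of 0.01 (adjusted p = 0.0149). DROSHA was at 0.14 with equal library totals and lost its call. AGO4 was called lower at -0.38 with equal library totals and at -0.28 in limma without its trend and robust options. AGO2, not called in any alternative, had the opposite sign with equal library totals (-0.0616), with quantile normalization (-0.0702) and without control siRNA replicate 1 (range -0.0096 to 0.0781 over left-out libraries). TNRC6C, likewise not called, had the opposite sign with equal library totals (-0.0854), edgeR (-0.0076) and DESeq2 (-8.00e-04) and in a range of -0.0556 to 0.0615 over left-out libraries. The causes were not tested. With the replicate number as a block, 3 members were higher and 4 lower, and over all genes 4837 and 4495. The block changed no member's call. In the lists, DDX17 lost its call under the block (adjusted p = 0.063), DGCR8 gained a call (0.0351), 3 sensors instead of 1 and 2 turnover genes instead of 3 were lower. TARBP2, not called in any alternative, had the opposite sign with equal library totals (-0.0905), quantile normalization (-0.0072), recomputed median-of-ratios factors (-0.0024) and edgeR (-0.0012), and ran from -0.0485 to 0.0514 over left-out libraries; PRKRA, likewise, had -0.0181 with equal library totals. Among 27 list genes named by the rule, 463 of 486 alternatives kept the call and 0 reversed. Depth limits AGO4 most, with 83 to 122 reads per library.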

Other observations

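By Pearson correlation of log2(normalized count + 1) over the 6 libraries, in a search of 14513 genes whose mean reached 50, the genes most like TNRC6B were RCAN3 (r = 0.9992, log2 fold change -0.25) and RMND5A (r = 0.9991, -0.74). Those most like XPO5 were TRPM2 (r = 0.9994, 0.40) and E2F4 (r = 0.9990, 0.65), and those most like AGO3 were ZNF558 (r = 0.9981, -0.56) and ADIPOR2 (r = 0.9973, -0.26). With 2 groups of 3 libraries such values mostly restate the difference between the groups: 200 genes were above r = 0.99 with TNRC6B, 300 with XPO5 and 19 with AGO3.

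Of the genes outside the machinery that lie within 2000 bases of a member without overlapping it, 5 were tested. FAM83F, beside TNRC6B on the same strand, was at 849 ± 52.0 normalized counts with FOXA1 siRNA and 873 ± 15.4 with control siRNA (SD, n = 3 each) and did not pass (limma adjusted p = 0.615). TMC6, which lies within 2000 bases of TNRC6C on the opposite strand, fell to 263 ± 16.7 with FOXA1 siRNA, against 558 ± 26.2 with control siRNA (log2 fold change -1.08 ± 0.08), while TNRC6C did not pass. ERICD, a noncoding gene within 2000 bases of AGO2 on the opposite strand, fell to 7.88 ± 3.12 with FOXA1 siRNA, against 24.04 ± 8.91 with control siRNA (-1.50 ± 0.41), while AGO2 did not pass. C5orf22 beside DROSHA (0.12 ± 0.08, limma adjusted p = 0.224) and POLH beside XPO5 (0.22 ± 0.09, limma adjusted p = 0.0552) did not pass, while DROSHA and XPO5 rose. Tested genes that overlap a member were POLR1C, which rose as described for XPO5, DICER1-AS1 (-0.72 ± 0.37, limma adjusted p = 0.105) and AC067931.1 in AGO2 (0.28 ± 0.22, limma adjusted p = 0.289), neither of which passed. The differences between neighbours and members were not tested.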
